A study of Homo sapiens with 6 samples.

Results

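G0S2, the genes of the lipases around it and those of the proteins that coat lipid droplets were examined in IKPRAB36 cells. These derive from Ishikawa cells, a line of endometrial cancer, by stable transfection with both progesterone receptor isoforms, PRA and PRB. The list holds 10 genes with 18 probe sets, out of 19775 genes and 54613 probe sets on the array: G0S2, PNPLA2, ABHD5, LIPE, MGLL, PLIN2, PLIN3, PLIN4, CIDEC and HILPDA. All probe sets annotated to a member gene alone, by its current or a former symbol, were taken. RNA was isolated from cells cultured for 48 h in the absence of MPA (control, 3 arrays) or in the presence of 1 nM MPA, the synthetic progestin medroxyprogesterone acetate (3 arrays), and hybridised to Affymetrix U133 Plus arrays. Both groups were kept in charcoal-stripped serum with hygromycin and neomycin, carry the same receptor transgenes and belong to a single transfected line, so that neither cells without the receptors nor a second line stand beside them. All 7 markers fixed for epithelial and endometrial cells, among them EPCAM, KRT8, KRT18, PAX8 and the progesterone receptor gene PGR, lay above the median signal of every array. Since the cells carry receptor transgenes, the PGR signal may include theirs and is no sign of cell type here. Of 16 measured markers of adipocytes, fibroblasts and leukocytes, 0 passed the test used here for a difference between the groups. Above the median of every array lay 7 of these 16: LPL, PLIN1, CIDEA, COL1A1, COL3A1, DCN and CD3E. Not passing, but with every MPA array below every control, were COL1A1 (log2 difference -0.81), COL3A1 (-0.53), CDH1 (-0.76), EPCAM (-0.54) and PAX8 (-0.44). PGR (0.48) and KRT8 (0.22), also not passing, lay above every control on every MPA array. The adipocyte hormone gene ADIPOQ lay between 2.64 and 2.89 on the log2 scale.

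The members were selected on the difference between MPA and control in these same arrays, in which G0S2 had the largest decrease of all genes. Their differences are therefore given as a description, with a 95% interval of the fit that is not adjusted for the number of probe sets, and without p-values. Array MPA 3 stood apart from the others. The mean log2 signal of 27 poly-A control probe sets was 6.19 on this array against 7.50 to 8.23 on the other 5. These controls are RNAs added to each sample during labelling. The median log2 signal of the tested probe sets was 5.28 on MPA 3 against 5.16 to 5.20 on the other 5. For members, a value without MPA 3 follows where the sign turned, the difference moved by 0.1 or more or its interval moved across 0. Differences of genes outside the list include MPA 3, and they may differ in size or, for genes not called, in sign without it. The pathway genes and the neighbour called below (ACSL1, TMT1A, LPIN1, LIPA, GPAT3 and LAMB3) were called in the same direction without MPA 3. Whether the 3 arrays of a group came from separate cultures is not said in the labels or methods, and errors and p-values cover array-to-array spread alone, possibly a technical one. A lower signal in such bulk RNA may come from fewer expressing cells or from less RNA per cell, which cannot be told apart.

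Cells store fatty acids as triglycerides in lipid droplets and release them by lipolysis. PNPLA2, also called ATGL, removes a fatty acid from the triglyceride, LIPE (hormone-sensitive lipase) acts on the diglyceride that remains, and MGLL (monoglyceride lipase) completes the reaction. ABHD5 is the coactivator of PNPLA2, while G0S2 and HILPDA are small proteins that bind and inhibit it. Perilipins such as PLIN2, PLIN3 and PLIN4 coat the droplet and limit access of the lipases, and CIDEC promotes the growth of droplets by fusion.

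The 250 bases before the annotated transcription start are shown for G0S2, the member that fell, for LAMB3, its neighbour on the chromosome that also fell, and for PLIN2, a droplet coat gene with a small difference, since these genes carry the contrast described here. Sequences are from RefSeq on GRCh38.p14, at chr1:209675162-209675411 (plus strand) for G0S2, chr1:209652426-209652675 (minus strand) for LAMB3 and chr9:19127493-19127742 (minus strand) for PLIN2. Capitals mark matches on either strand to TGTTCT, an arm of the element that progesterone and glucocorticoid receptors bind, to AGGTCA, an arm of the PPAR element, or to ACGTG, the core of the hypoxia response element.
G0S2: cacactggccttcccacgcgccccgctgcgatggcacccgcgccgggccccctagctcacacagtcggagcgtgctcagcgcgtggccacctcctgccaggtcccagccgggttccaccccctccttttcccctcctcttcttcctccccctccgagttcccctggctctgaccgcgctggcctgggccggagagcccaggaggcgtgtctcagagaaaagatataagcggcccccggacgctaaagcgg
LAMB3: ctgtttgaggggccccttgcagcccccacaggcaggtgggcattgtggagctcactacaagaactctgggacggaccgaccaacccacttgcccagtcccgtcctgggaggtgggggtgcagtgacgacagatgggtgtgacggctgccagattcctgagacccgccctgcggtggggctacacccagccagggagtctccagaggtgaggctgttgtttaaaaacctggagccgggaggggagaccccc
PLIN2: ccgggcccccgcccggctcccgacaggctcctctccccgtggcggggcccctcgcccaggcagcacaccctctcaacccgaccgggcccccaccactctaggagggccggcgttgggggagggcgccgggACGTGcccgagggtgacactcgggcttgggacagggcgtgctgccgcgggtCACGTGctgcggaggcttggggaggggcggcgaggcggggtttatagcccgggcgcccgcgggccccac
The G0S2 sequence holds none of these letters, and PLIN2 holds ACGTG 3 times, with 2 of these matches overlapping each other on opposite strands. In windows of 300 bases, which also take in the first transcribed bases, TGTTCT was found in 14.8%, AGGTCA in 13.8% and ACGTG in 21.4% of 35116 RefSeq promoters. Of 8 member genes with a promoter in the table, 1 held TGTTCT (CIDEC), 1 AGGTCA (PNPLA2) and 1 ACGTG (PLIN2); MGLL and HILPDA have no entry there. Of 3 LAMB3 windows in the table, 2 hold the same match to TGTTCT, 42 bases after the first annotated start, whose upstream sequence is printed, and before the next one. These matches are descriptions of the sequence and were not tested as binding sites.

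G0S2 was down regulated with MPA while no probe set of the other 9 genes was called. The G0S2 signal was 8.28, 8.01 and 8.01 on the control arrays and 5.07, 5.41 and 5.92 on the MPA arrays (log2). Every MPA array lay below every control array, with a gap of 2.09 between the nearest ones. The group means were 8.10 ± 0.16 and 5.47 ± 0.42 (SD, n = 3 arrays each), so that the signal fell by 2.63 on the log2 scale (SE 0.20, 95% interval -3.10 to -2.17), or 6.20-fold. On array MPA 1 the G0S2 signal was under the median of the array. No detection calls were used, so that the fold is that of the RMA signals only. Without MPA 3 the difference was -2.86. G0S2 has a single probe set here, and its name ends in "_s_at", by which Affymetrix marks probe sets that can bind more than a single transcript.

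Of the 18 member probe sets, 1 was called lower and 0 higher by the criteria used across the array (adjusted p under 0.05 and a log2 difference of at least 0.32 in size), while 0.813% of all probe sets were called lower; nothing is read from this count, since the same contrast chose the list. Among the 17 probe sets of the other 9 genes, 11 had a higher and 6 a lower mean with MPA, and their log2 differences ran from -0.17 to 0.41. The median over the 18 was 0.06, beside 0.01 over all probe sets. The interval included 0 for 16 of the 17, and the bounds of the 17 ran from -0.61 (LIPE) to 0.83 (ABHD5), whereas the interval of G0S2 ended at -2.17. In 2 of the 17 the groups did not overlap, which held for 15.4% of all probe sets.

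**Figure D1:**
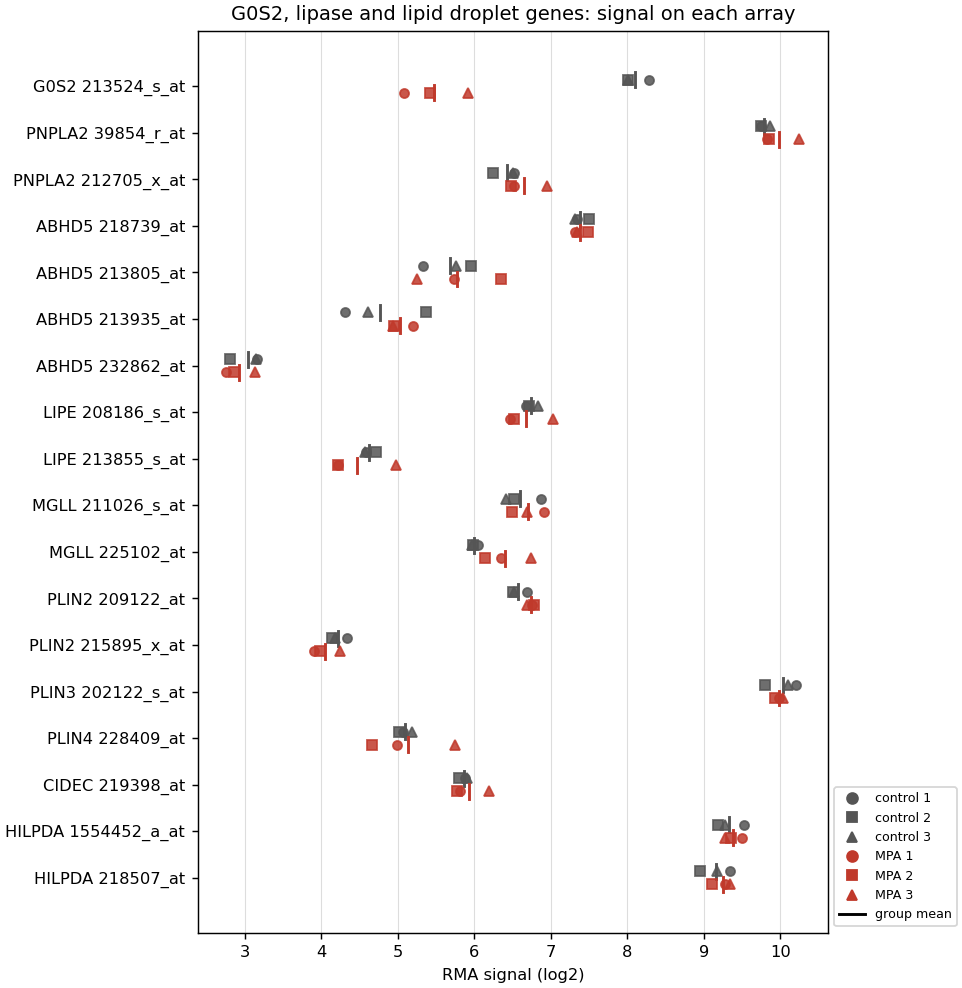
RMA signal (log2, x axis) of each of the 18 member probe sets (y axis) on the 3 control arrays (grey) and the 3 MPA arrays (red), with the array number given by the marker and vertical lines at the group means. For G0S2 the MPA arrays lie between 5.07 and 5.92 and the control arrays between 8.01 and 8.28, while in most other rows the colours overlap. Signals of different probe sets are not comparable with one another.

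For the regulators of PNPLA2 other than G0S2, the signals of both groups overlapped. HILPDA, which like G0S2 inhibits PNPLA2 and is known as a hypoxia-induced gene, gave 9.52, 9.18 and 9.28 in control cells and 9.50, 9.36 and 9.28 with MPA on its brightest probe set. The log2 difference was 0.05 (95% interval -0.24 to 0.33), and on the other HILPDA probe set it was 0.09 (-0.21 to 0.39). Neither HILPDA probe set thus followed the decrease of G0S2. For the coactivator ABHD5, the brightest probe set gave 7.34, 7.50 and 7.32 in control cells and 7.32, 7.48 and 7.34 with MPA. With a difference of 0.00 in size (interval -0.25 to 0.24; 0.01 without MPA 3), this was the member probe set whose groups lay closest together. The 3 dimmer ABHD5 probe sets differed by 0.09, 0.26 and -0.12; their arrays spread more widely, over 1.10, 1.06 and 0.40, and the dimmest lay under the median of every array. Without MPA 3 the first and the last of these differences were 0.36 (-0.19 to 0.91) and -0.23 (-0.55 to 0.09). The second was 0.57 (0.23 to 0.91) without control 2, and it was not called there either.

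None of the 3 lipases was called in either direction, and the LIPE intervals left out 0 when array MPA 3 was left out. PNPLA2 gave 9.75, 9.75 and 9.87 in control cells and 9.82, 9.86 and 10.25 with MPA on its brightest probe set. The first 2 MPA arrays lay within the control range and MPA 3 lay above it. The log2 difference was 0.19 (95% interval -0.12 to 0.50), and 0.05 without MPA 3. The other PNPLA2 probe set gave the same picture, with 0.23 and, without MPA 3, 0.08.

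LIPE gave 6.67, 6.72 and 6.83 in control cells and 6.47, 6.52 and 7.03 with MPA. Arrays MPA 1 and MPA 2 lay below all controls and MPA 3 lay above them, so that the groups overlapped with a difference of -0.07 (-0.43 to 0.29). The second LIPE probe set had the same order, 4.58, 4.71 and 4.56 against 4.22, 4.21 and 4.97, at signals under the median of each array. Without MPA 3 the LIPE differences were -0.25 (-0.49 to -0.01) and -0.40 (-0.65 to -0.16), and neither was called.

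MGLL gave 6.87, 6.52 and 6.41 in control cells and 6.91, 6.50 and 6.68 with MPA on its brightest probe set (difference 0.10, -0.26 to 0.45). Its other probe set gave 6.04, 5.98 and 5.96 against 6.35, 6.13 and 6.73. There all MPA arrays lay above all controls, with a difference of 0.41 (0.06 to 0.76), the only interval apart from that of G0S2 that left out 0. It was not called, and without MPA 3 the difference was 0.24 (-0.01 to 0.50). The 2 MGLL probe sets thus did not give the same difference.

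The droplet proteins differed little between the groups. PLIN2, the perilipin found in most cell types, gave 6.69, 6.51 and 6.51 in control cells and 6.75, 6.77 and 6.69 with MPA. The MPA arrays lay just above the controls, with a difference of 0.17 (-0.06 to 0.41), and this was not called. The dimmer PLIN2 probe set, under the median of each array, had a difference of the opposite sign, -0.17 (-0.46 to 0.11), and -0.27 (-0.53 to -0.02) without MPA 3, also not called. PLIN3, also widely expressed, gave 10.21, 9.80 and 10.10 against 9.98, 9.93 and 10.03; its MPA arrays lay within the control range (-0.06, -0.35 to 0.23).

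For PLIN4 and CIDEC, best known from adipocytes, the sign of the difference rested on MPA 3. PLIN4 gave 5.06, 5.02 and 5.19 in control cells and 4.98, 4.66 and 5.75 with MPA, and 5 of these 6 values were under the median of their array. MPA 1 and MPA 2 lay below all controls and MPA 3 above, which gave a difference of 0.04 (-0.52 to 0.60), and -0.27 (-0.57 to 0.04) without MPA 3. CIDEC gave 5.88, 5.79 and 5.90 against 5.82, 5.78 and 6.18, a difference of 0.07 (-0.23 to 0.37) that became -0.06 without MPA 3. Over the 17 probe sets other than that of G0S2, MPA 3 had the highest of the 6 values in 8 (47.1%), and over all probe sets in 36.3%. The part of array MPA 3 in these differences was not tested beyond leaving it out.

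**Figure D2:**
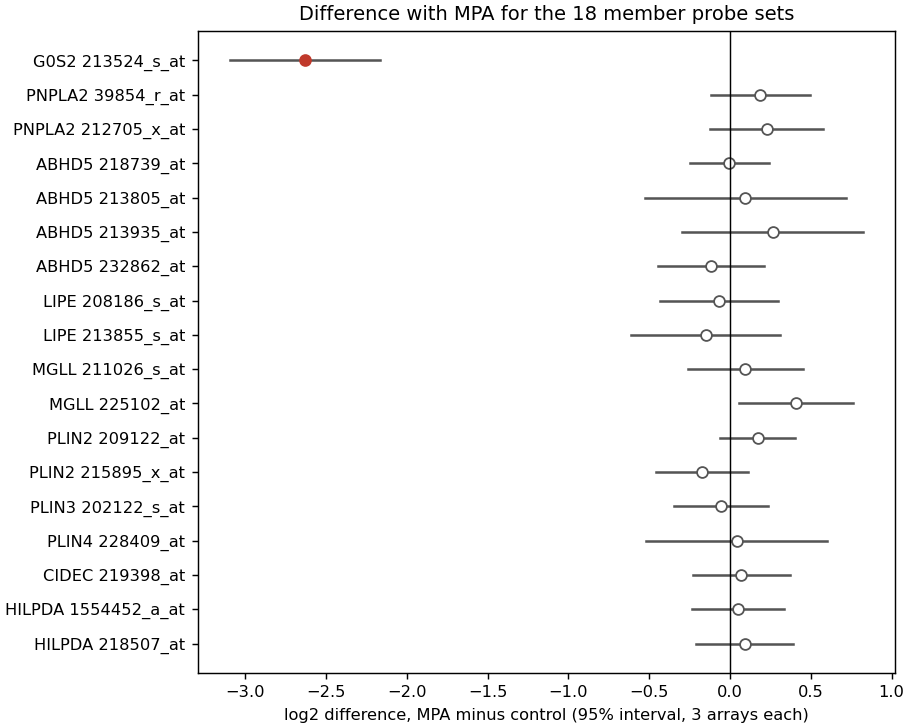
log2 difference of MPA minus control (x axis) for each of the 18 member probe sets (y axis), with the 95% interval of the limma fit over 3 arrays each. The filled point, G0S2 at -2.63, was called lower; the other 17 points lie between -0.17 and 0.41 and were not called.

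Whether other genes of lipid storage moved was asked of 81 genes in 4 lists, of which 74 had a probe set of their own. These are no members, and they were tested, though reported values of some of them had been seen before. MPA raised ACSL1, TMT1A, LPIN1 and LIPA and lowered GPAT3, and the other 69 did not pass the test. The 4 higher and 1 lower of 74 stand beside 1.74% of all genes called higher and 1.16% called lower. The median log2 difference of the 74 was 0.10, beside 0.02 over all genes. The lists were not tested as sets. Nothing is read from these counts or medians, since some of the values had been seen.

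In the list of fatty acid uptake and activation, 1 of 16 genes rose and 0 fell. ACSL1, which couples long-chain fatty acids to coenzyme A, gave 9.08, 8.96 and 9.35 in control cells and 10.98, 10.79 and 10.82 with MPA. All MPA arrays lay above the controls, a 3.33-fold increase (log2 difference 1.74, SE 0.13, adjusted p = 0.000321 from limma), and its second probe set rose by 1.92. SLC27A3, a fatty acid transport protein, had a difference of 0.61 (adjusted p = 0.143), and the binding proteins FABP3, FABP4 and FABP5 had differences of -0.15, -0.09 and -0.13 (adjusted p = 0.777 to 0.928).

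Of 18 genes of triglyceride and sterol ester synthesis, 1 rose and 1 fell. GPAT3, an acyltransferase that adds the initial fatty acid to glycerol-3-phosphate, gave 5.47, 5.52 and 5.57 in control cells and 4.18, 4.60 and 4.43 with MPA. It fell by 1.12 on the log2 scale (SE 0.13, adjusted p = 0.00294 from limma), to signals under the median of every MPA array, so that, as for G0S2, the value is a difference of RMA signals only. LPIN1, a phosphatidate phosphatase that makes diglyceride, gave 9.11, 9.38 and 9.26 against 10.15, 10.13 and 9.87. It rose 1.74-fold (SE of the log2 difference 0.12, adjusted p = 0.0139 from limma), and its other probe sets were higher by 0.72 and 0.71, the latter not called (adjusted p = 0.0779). The call of LPIN1 was lost when any of control 1, control 3, MPA 1 and MPA 2 was left out (adjusted p of 0.0583 to 0.0890). DGAT1 and DGAT2, which complete the triglyceride, had differences of -0.14 and -0.13 (adjusted p = 0.888 and 0.880 from limma). AGPAT1 of the same list had a difference of 0.47 (adjusted p = 0.261 from limma) and 0.62 on its other probe set. Neither was called, although on both all MPA arrays lay above the controls.

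Of 23 other lipases and lipolysis regulators, 1 rose and 0 fell. LIPA, the lysosomal acid lipase, gave 10.23, 10.38 and 10.52 in control cells and 11.19, 11.11 and 11.19 with MPA. It rose 1.73-fold (log2 difference 0.79, SE 0.11, adjusted p = 0.00865 from limma). Its dim second probe set differed by 0.04, and LIPA lost its call without MPA 1 (adjusted p = 0.0611) and with its probe sets averaged (adjusted p = 0.0896). LIPG, the endothelial lipase, had a difference of 0.67 (adjusted p = 0.0860), although its MPA arrays all lay above its controls. LIPG, like SLC27A3, was called higher by SAM, the permutation-based test of the methods. PNPLA3, a relative of PNPLA2, was at -0.33 (adjusted p = 0.423 from limma), and its MPA arrays all lay below its controls. ANGPTL4, a secreted inhibitor of lipoprotein lipase, was at 0.12 (adjusted p = 0.903 from limma). Groups that did not overlap, in either direction, were found for 6 of the 23 genes, and for 15.4% of all probe sets.

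Of 17 other lipid droplet proteins, 1 rose and 0 fell. TMT1A, a methyltransferase found on droplets and also called METTL7A, gave 8.46, 8.18 and 8.39 in control cells and 10.17, 9.94 and 9.995 with MPA. It rose 3.23-fold (log2 difference 1.69, SE 0.12, adjusted p = 0.000271 from limma), but its 3 other probe sets, all dimmer, differed by 0.49, 0.11 and 0.01 and were not called. With the probe sets averaged the difference of TMT1A was 0.57 (adjusted p = 0.0195 from limma). PLIN1 and PLIN5, the perilipins of adipocytes and of oxidative tissues, had differences of 0.11 and 0.10 (adjusted p = 0.856 and 0.913), and CIDEA and CIDEB of -0.04 and -0.19 (adjusted p = 0.966 and 0.766).

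**Figure D3:**
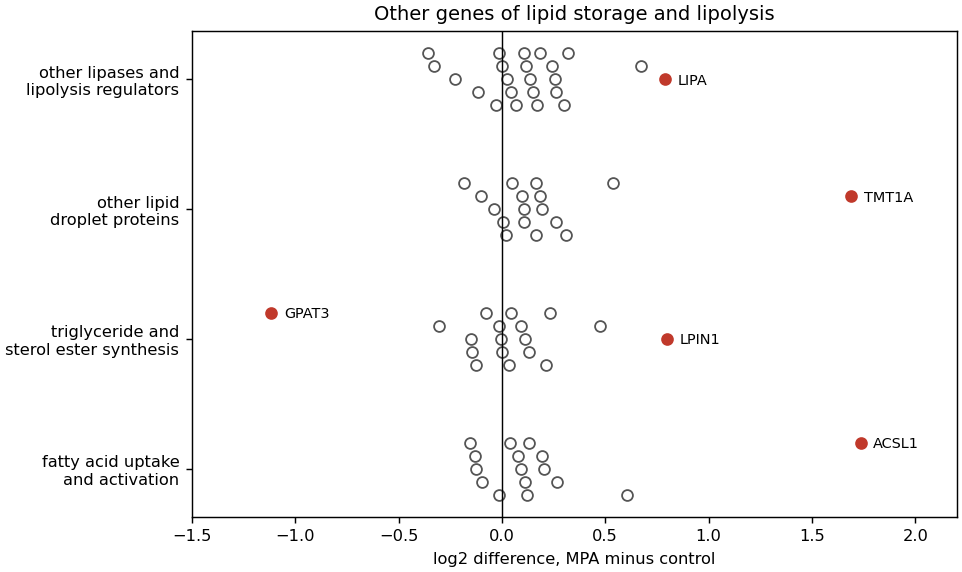
log2 difference of MPA minus control (x axis) for 74 genes of 4 lists (y axis; points are staggered within a list for legibility only), each by its brightest probe set, 3 arrays per group. Filled, named points passed the test: GPAT3 at -1.12, and LIPA, LPIN1, TMT1A and ACSL1 at 0.79 to 1.74.

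Of the 6 nearest protein-coding genes on chromosome 1, 3 on each side of G0S2, 5 had a probe set of their own, and 1 of these fell. LAMB3, which encodes the beta chain of laminin-332, is the next gene on one side of G0S2. It gave 8.53, 8.16 and 8.51 in control cells and 6.78, 6.50 and 7.11 with MPA, so that all MPA arrays lay below the controls. The means were 8.40 ± 0.21 and 6.80 ± 0.31 (SD, n = 3), a decrease of 3.04-fold (log2 difference -1.60, SE 0.17, adjusted p = 0.00228 from limma). The gene next to G0S2 on the other side, HSD11B1, which converts cortisone to cortisol, gave 3.81, 3.81 and 3.70 against 3.49, 3.42 and 3.87 and was not called (-0.18, adjusted p = 0.783); these signals lie under the median of every array. PLXNA2, TRAF3IP3 and C1orf74 differed by -0.09, 0.05 and -0.04 (adjusted p = 0.917 to 0.976), and CAMK1G was not analysed here. PLXNA2 and TRAF3IP3, like HSD11B1, lay under the median of every array, where a decrease could go unseen, and C1orf74 lay above it. HSD11B1 and PLXNA2 (4.88 to 4.94 in control cells, 4.70, 4.71 and 5.06 with MPA) lay below all controls on MPA 1 and MPA 2. On MPA 3 both lay above all controls. G0S2 and LAMB3 were thus both lower, and the 4 other measured neighbours did not pass the test.

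**Figure D4:**
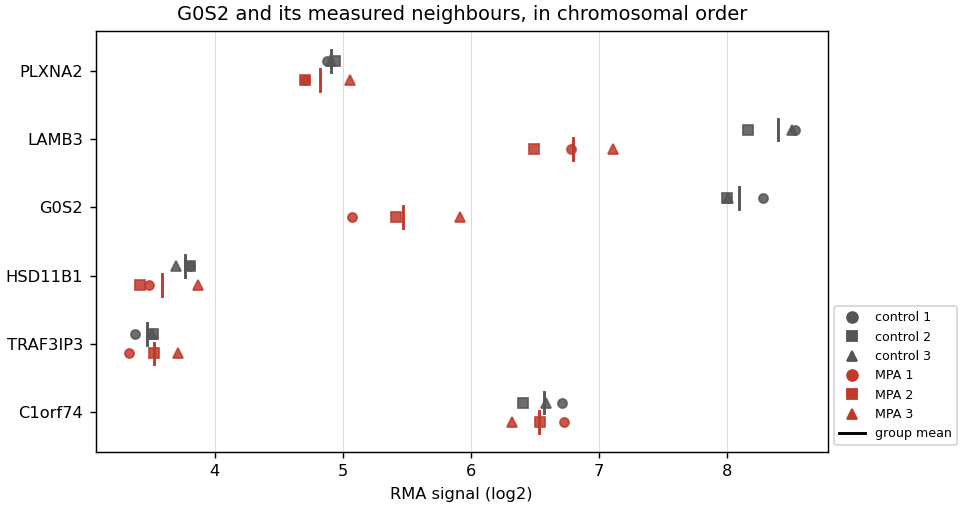
RMA signal (log2, x axis) of G0S2 and its 5 measured neighbours, listed in chromosomal order (y axis), on each control array (grey) and MPA array (red), with vertical lines at the group means. LAMB3 (means 8.40 and 6.80) and G0S2 (8.10 and 5.47) are lower with MPA, and in the other 4 genes the groups overlap.

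Of 19774 other genes, those with an array profile nearest to that of G0S2 were ZNF423, FGFBP1, TNFRSF19, PLA2G7 and RBP2. Nearness was taken as the root mean square distance over the 6 arrays after subtracting the mean of each gene, and it was 0.25, 0.30, 0.35, 0.39 and 0.41 on the log2 scale. Pearson's r with G0S2 was 0.97 to 0.98 over the 6 arrays, most of which is the shared step between the groups, and it is given without a test. The log2 differences were -2.47 for ZNF423, a zinc finger transcription factor, -2.33 for FGFBP1, which binds fibroblast growth factors, -2.54 for TNFRSF19, a TNF receptor family member, -2.11 for PLA2G7, a secreted phospholipase that degrades platelet-activating factor, and -1.96 for RBP2, a retinol binding protein. Within the MPA group G0S2 ran from 5.07 to 5.92, ZNF423 from 6.15 to 6.44, FGFBP1 from 6.29 to 6.36, TNFRSF19 from 6.92 to 7.29 and RBP2 from 8.13 to 8.69. PLA2G7 ran from 4.06 to 4.16, under the median of every MPA array, so that its difference is that of low signals. No other member was among them, which their small differences settled beforehand by this measure.

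**Figure D5:**
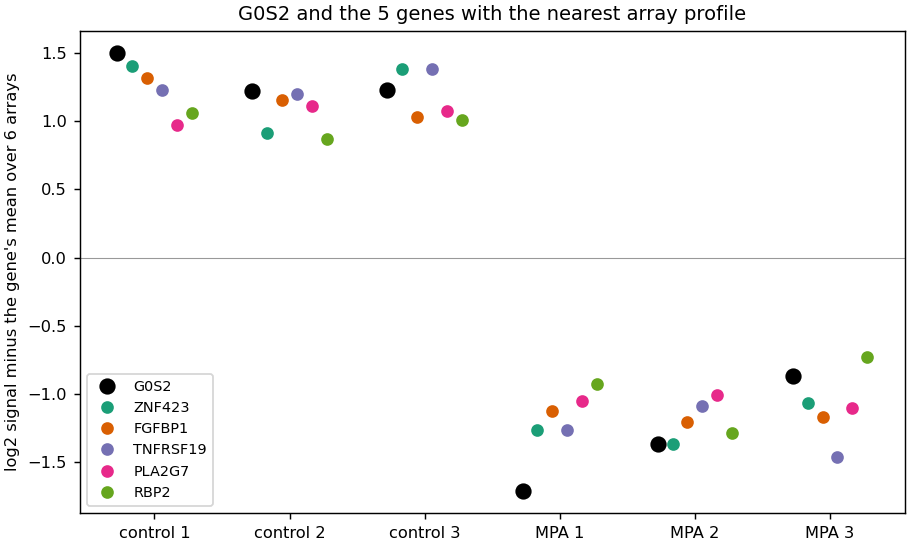
log2 signal minus the gene's own mean over 6 arrays (y axis) on each array (x axis) for G0S2 (black) and the 5 genes with the nearest profile (colours, offset sideways). All 6 genes are above 0 on each control array and below 0 on each MPA array, with r of 0.97 to 0.98 against G0S2.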

How the data were processed

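The values that the authors deposited are log2 signals per probe set, obtained from Affymetrix U133 Plus scans with RMA (robust multi-array analysis), which subtracts background, sets arrays to a common distribution and summarizes the probes. Of the RMA software no version was found in the sources used here. Of the table, 54613 probe sets were tested after 62 Affymetrix controls were left out. Gene names came from the annotation of the array platform and were brought up to date through gene identifiers in a RefSeq table of GRCh38.p14: 41091 had 1 symbol (41037 of them matched by identifier), 1801 several and 11721 none, and the latter groups were not named. Since no build is named for the array, gene coordinates are not given apart from those of the RefSeq promoters.

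The difference between MPA and control was fitted by limma 3.58.1 under R 4.3.3 as a two-sided moderated test without covariates, and p-values were adjusted over all 54613 probe sets by Benjamini-Hochberg. Probe sets with an adjusted p under 0.05 and a log2 difference of 0.32 or more in size, the minimum that the methods use, were called. A gene outside the list of members was represented by its brightest probe set. SAM, the test of the methods, was written from its description (20 relabelings, delta 0.58) and served as an alternative; the scripts were tested on simulated data. Precision is set by the 3 arrays per group. Within groups, arrays correlated at 0.987 to 0.997, and none was a duplicate of another.

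The members and lists were chosen with earlier results of these data known. Named genes were all members, the called genes of the pathway lists, the neighbours of G0S2 and the 5 genes nearest in profile. LIPG, SLC27A3, PNPLA3, ANGPTL4, AGPAT1, DGAT1, DGAT2, FABP3 to FABP5 and the remaining perilipin and CIDE genes were named after their values were seen. The LAMB3 promoter was likewise added after values were seen. Protein sequences were not used here.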

Additional observations from a re-analysis of the deposited data

How the results depend on the processing

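The members' calls did not move: G0S2 was called lower under all 14 alternatives, with log2 differences of -2.86 (without MPA 3) to -2.43 (without MPA 1), and of 225 values of the other members under alternatives 0 were called. Since the decrease on these same arrays put G0S2 on the list, this is a description and no further support. Among pathway genes, the number higher was 4; it was 7 with the replicate block (LIPG, RAB18 and SLC27A3 added), 6 with SAM (LIPG and SLC27A3 added) and 2 to 4 when each array was left out in turn, with the fewest without MPA 1. The number lower, 1, became 0 when dim probe sets were left out, since GPAT3 is then not tested. ACSL1, TMT1A and, among the neighbours, LAMB3 were called under all 14 alternatives (adjusted p up to 0.00431, 0.0195 and 0.0202). The deviations of control and MPA arrays of number 1, 2 and 3 correlated at -0.02, 0.52 and 0.33. MPA 2 correlated best with control 2, but MPA 1 and MPA 3 did so with control 2 and control 1. Whether arrays of the same number belong together is not settled by these values, and the main fit does not use the number. Over all probe sets the calls numbered 1107, against 2033 with the replicate block, 1991 with SAM, 608 without control 1, 518 without control 3 and 529 without MPA 1. Changes of small size could be missed with 3 arrays a group, so the 17 probe sets not called are not shown to be equal between the groups. Their intervals are those of the main fit, and some bounds lay further out when an array was left out. The highest, 0.83 for an ABHD5 probe set, became 0.98 without MPA 3. The lowest, -0.61 for a LIPE probe set, became -0.75 without control 3.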
